A study of Mus musculus with 6 samples.

Results

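The nuclei described here are Fabp4 Cd5l Slamf8 macrophages, a set of macrophage nuclei from cortical photothrombotic (PT) lesions of the mouse brain, in which light activates an injected dye and clots the vessels beneath it. A nucleus was a member when it held at least 1000 unique molecular identifiers (UMIs, counts of RNA molecules) and under 5% mitochondrial UMIs and passed 3 conditions on detected genes, where detected means at least 1 UMI. It needed at least 2 of the 4 leukocyte genes Ptprc, Csf1r, Dock2 and Gpnmb, and at least 3 of the 8 positive genes Fabp4, Cd5l, Slamf7, Slamf8, Atp6v0d2, Ccl6, F7 and F10. It could hold at most 1 of 7 negative genes, P2ry12, Sall1 and Siglech of microglia, Cd163 and F13a1 of border macrophages, Plau of an early lesion macrophage and Col1a2 of fibroblasts. The rule found 4540 members among 32623 leukocyte-marker nuclei, 60729 nuclei past the quality filter and 67360 barcodes. The members were thus chosen by the measured UMIs of these genes in the same nuclei, so the levels of those genes are a description and not a result.

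The study profiled nuclei from 6 groups of lesions by single-nucleus RNA-seq, with 1 library per group, and each library pooled the lesions of 1 male and 1 female mouse. Ctrl mice were wild type (WT), with no treatment named in the labels. ADWA11 mice were WT and received the antibody ADWA11, which blocks integrin αvβ8, a receptor that releases active TGFβ from its latent complex, by weekly intraperitoneal injection from the day of injury. Tgfbr2-cKO mice carried Col1a2(creER) and Tgfbr2(flox), and tamoxifen-induced Cre from the Col1a2 allele deletes a TGFβ receptor gene in fibroblasts and not by design in macrophages. Each group was sampled at 7 and at 21 days post-injury (dpi). All mice were injured, and no uninjured library was part of the set. They were adults of 7 to 21 weeks, and the labels give no tamoxifen for Ctrl or ADWA11 mice.

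Macrophages engulf dead cells and debris, and after brain injury they arise from blood monocytes, from resident microglia and from macrophages of the brain borders. A macrophage that takes in myelin and cell membranes must store, burn or export the lipid, and nuclear receptors such as PPARγ and LXRα switch on the genes that do so. The positive genes come from such programmes. Fabp4 encodes a fatty acid carrier of fat cells and macrophages, and Cd5l a secreted protein of tissue macrophages that is a known target of LXR. Slamf7 and Slamf8 encode surface receptors of the SLAM family. Atp6v0d2 encodes a subunit of the proton pump that acidifies lysosomes and is abundant in osteoclasts and some macrophages. Ccl6 encodes a chemokine, and F7 and F10 encode coagulation factors.

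In the mouse genome build GRCm38, Fabp4 lies on the minus strand of chromosome 3 at 10204088-10208576 and Cd5l on the plus strand of the same chromosome at 87357881-87371073. Slamf7 and Slamf8 are close to each other on the minus strand of chromosome 1, at 171632403-171653035 and 172581758-172590568. Atp6v0d2 is at 19876841-19922605 of chromosome 4 and Ccl6 at 83587882-83593087 of chromosome 11, both on the minus strand. F7 and F10 are neighbours on the plus strand of chromosome 8, at 13026034-13035809 and 13037308-13056676.

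The 250 bases before the start site are shown for Cd5l and Slamf8, which give the set its name, because the members differed between libraries in both genes. The sequences come from the RefSeq promoter table for GRCm38.p6, which had an entry for 6 of the 8 positive genes and none for Fabp4 and Atp6v0d2. The Cd5l window is chr3:87357631-87357880 on the plus strand and the Slamf8 window chr1:172590569-172590818 on the minus strand, each written 5′ to 3′ up to the base before the start site. Capitals mark the core GAGGAAG bound by PU.1 (Spi1), a transcription factor of the myeloid lineage, read here on the opposite strand.
Cd5l: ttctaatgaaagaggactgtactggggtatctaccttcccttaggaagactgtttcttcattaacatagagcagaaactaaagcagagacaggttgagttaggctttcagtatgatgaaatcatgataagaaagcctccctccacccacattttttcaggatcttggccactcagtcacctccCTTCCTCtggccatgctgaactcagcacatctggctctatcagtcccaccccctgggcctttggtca
Slamf8: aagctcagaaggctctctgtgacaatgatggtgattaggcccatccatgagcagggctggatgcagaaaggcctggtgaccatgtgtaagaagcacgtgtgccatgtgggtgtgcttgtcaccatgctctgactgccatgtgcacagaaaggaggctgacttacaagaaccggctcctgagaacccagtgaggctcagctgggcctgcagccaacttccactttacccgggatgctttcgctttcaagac
The core stood 67 bases before the Cd5l start. The Slamf8 window held neither it nor the AP-1 motif TGANTCA or the nuclear receptor half-site AGGTCA, and the Cd5l window held no other match to these letters. Both strands were searched. Over 32851 promoters, windows of the same length held GAGGAAG in 10.6%, AGGTCA in 14.0% and TGANTCA in 6.75%.

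The genes of the rule were detected in very different shares of members. Atp6v0d2 was the most common, in 81.6%, 94.0% and 78.9% of members at 7 dpi and 97.1%, 95.9% and 92.7% at 21 dpi (Ctrl, ADWA11 and Tgfbr2-cKO in that order, which is kept below). Slamf7 was detected in 72.4%, 50.5% and 63.2% at 7 dpi and 74.6%, 71.2% and 56.4% at 21 dpi. Cd5l was in 39.5%, 70.5% and 36.8% at 7 dpi and 54.8%, 76.2% and 69.7% at 21 dpi. Fabp4 was detected in fewer members, with 31.6%, 31.0% and 36.8% at 7 dpi and 46.1%, 59.5% and 46.7% at 21 dpi. Slamf8 was in 3.95%, 10.2% and 15.8% of members at 7 dpi and 16.3%, 30.8% and 7.27% at 21 dpi, so that in every library most members showed no Slamf8 UMI. The set is therefore named by its rule, and Atp6v0d2 and Slamf7 were found in over 50% of members in every library. F7 had the opposite order in time, in 34.2%, 24.2% and 42.1% of members at 7 dpi against 13.4%, 13.9% and 12.7% at 21 dpi. F10 was in 35.5%, 15.9% and 42.1% at 7 dpi and 14.6%, 15.2% and 21.8% later, and its level in ADWA11 was 29.9 CPM at 7 dpi and 44.3 at 21 dpi.

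The pairings of these genes differed between libraries as well. Fabp4 and Cd5l were found together in 10.5%, 20.6% and 15.8% of members at 7 dpi and 21.9%, 46.4% and 32.7% at 21 dpi. Neither was found in 39.5%, 19.1% and 42.1% at 7 dpi and 21.0%, 10.7% and 16.4% at 21 dpi. F7 or F10 was found in 55.3%, 32.9% and 57.9% at 7 dpi and 24.5%, 24.2% and 30.3% at 21 dpi. Pooled over libraries, of which ADWA11 21 dpi gave 3283 of the 4540 members, Cd5l, Slamf7 and Atp6v0d2 together were the most common triple, in 1928 members (42.5%), followed by Fabp4, Cd5l and Atp6v0d2 in 1742 (38.4%). Because each member must hold 3 of the 8 positive genes, a lower share of one goes with higher shares of others, and these shares are a description of the rule.

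The threshold of 3 positive genes cut through a continuous range. Of the members, 1978 held 3 of the 8 genes, 1359 held 4, 765 held 5, 318 held 6, 105 held 7 and 15 held 8. Another 3108 leukocyte-marker nuclei met every other condition and held 2. On the negative side, 1255 members held 0 of the 7 genes and 3285 held 1, and 2105 nuclei were outside by holding exactly 2. For 1643 of these, Col1a2 was among the 2. Another 1141 held more than 2 negative genes. Both kinds count among the other leukocyte-marker nuclei with which members are compared below. In ADWA11 21 dpi they were 1113 and 297 of 5480 such nuclei, and in Ctrl 21 dpi 167 and 85 of 4980. Median UMIs just inside and just outside the threshold were 6724 and 5571 in Ctrl 7 dpi, 7139 and 6239 in ADWA11 7 dpi and 5081 and 5573 in Tgfbr2-cKO 7 dpi. They were 5057 and 4754.5, 4814 and 3935, and 7083 and 5940.5 in the corresponding 21 dpi libraries.

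**Figure D1:**
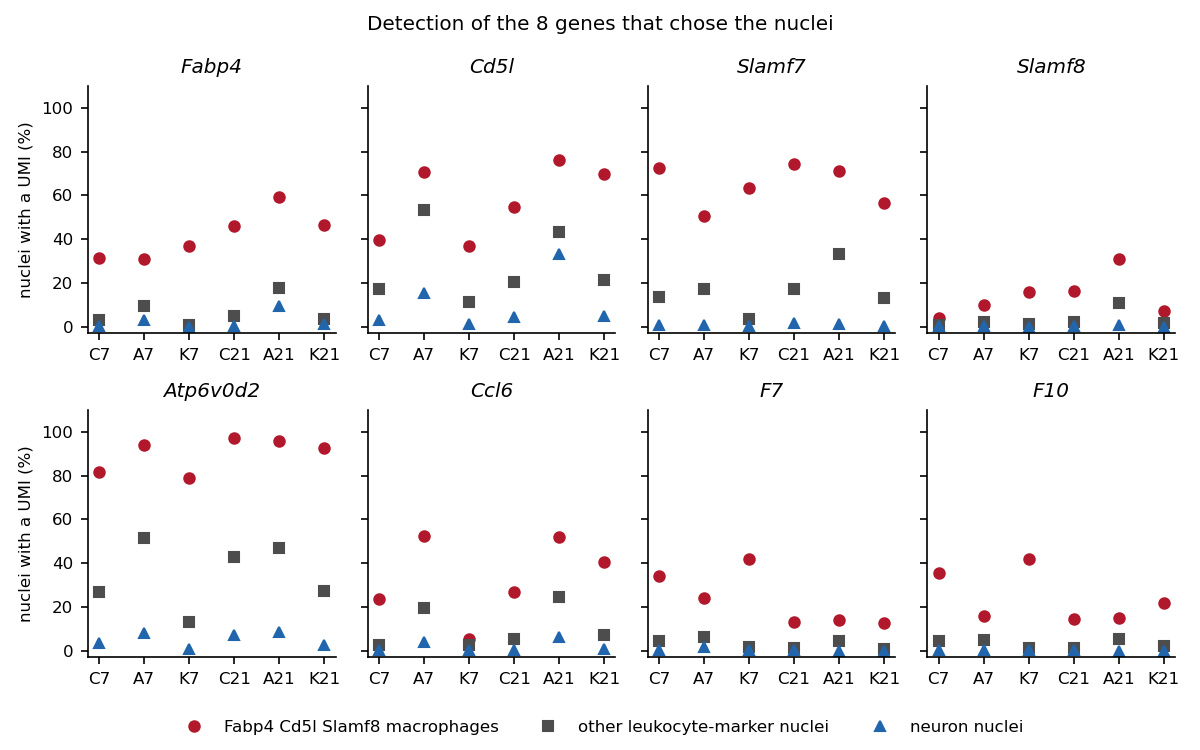
Share of nuclei (%) with at least 1 UMI of each of the 8 positive genes, in Fabp4 Cd5l Slamf8 macrophages, in other leukocyte-marker nuclei and in neuron nuclei of each library (C, A and K stand for Ctrl, ADWA11 and Tgfbr2-cKO, and 7 and 21 for dpi). Atp6v0d2 was detected in 78.9% to 97.1% of members and Slamf8 in 3.95% to 30.8%.

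RNA released from broken cells gives UMIs in nuclei that do not express a gene, and neurons, which should lack these genes, show its level. Neuron and fibroblast nuclei here held at least 4 of 8 markers of their type and at most 1 of the 4 leukocyte genes. Members hold more of these, so the background of nuclei that pass the leukocyte condition was not measured. Holding 3 or more of the 8 positive genes was seen in 0% to 2.17% of neuron nuclei, against 5.59%, 26.5% and 0.941% of leukocyte-marker nuclei at 7 dpi and 11.2%, 53.6% and 8.45% at 21 dpi. For single genes the background was higher. Cd5l was detected in 3.15%, 15.3% and 1.12% of neuron nuclei at 7 dpi and 4.41%, 33.3% and 4.84% at 21 dpi. Fabp4 was detected in at most 9.42% of neuron nuclei, again in ADWA11 21 dpi, and Atp6v0d2 in 0.72% to 8.70%. Col1a2, a fibroblast gene, was found in 68.2%, 58.8% and 7.66% of neuron nuclei at 7 dpi and 83.6%, 67.4% and 22.3% at 21 dpi. It was detected in 42.1%, 22.0% and 0.0% of members at 7 dpi and 78.4%, 54.1% and 8.48% at 21 dpi. Because a member may hold 1 negative gene, a member with a Col1a2 UMI could hold none of the other 6, and the room for F13a1 or P2ry12 therefore differed between libraries by rule.

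The nuclei carried macrophage genes. The summed level of 14 general macrophage markers was 4643, 4828 and 3124 CPM at 7 dpi and 4204, 5333 and 5089 at 21 dpi, and none of the 14 was at 0. CPM here is a gene's UMI count scaled to a common total, that of the non-mitochondrial UMIs summed over the members of a library. In other leukocyte-marker nuclei of the same libraries the sum lay between 1998 and 3746, and in neuron nuclei between 76 and 303. Adgre1, which encodes the macrophage marker F4/80, stood at 322, 339 and 171 CPM in members at 7 dpi and at 215, 224 and 184 at 21 dpi. Mertk, a receptor for dying cells, stood at 1698, 2060.1 and 1000 CPM at 7 dpi and 1872, 2578 and 2636 at 21 dpi. Cd68, of lysosomes, ranged from 69.8 to 94.6 CPM in members and from 37.4 to 62.8 in other leukocytes.

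RNA of other cells was present too, in amounts that differed between libraries. The summed level of 7 fibroblast markers other than Col1a2 was 469.7, 514 and 23.3 CPM in members at 7 dpi and 1271, 583 and 193 at 21 dpi. Neuron markers, 8 in all, summed to 371, 726 and 6845 CPM at 7 dpi and 813, 307 and 2649 at 21 dpi. At least 4 markers of 1 non-myeloid class were found in 11.8%, 11.2% and 68.4% of members at 7 dpi and 33.5%, 15.0% and 24.2% at 21 dpi. Fibroblast RNA was thus highest in Ctrl 21 dpi members and neuron RNA in both Tgfbr2-cKO libraries. The part of this RNA in the differences below was not tested. Each comparison of genes between libraries is therefore also given for genes at least as high in members as in neuron and in fibroblast nuclei, a restriction chosen after the data were seen.

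A pair of genes from the lists of other cell types was higher in members than in other leukocytes of most libraries. St18, a transcription factor gene on the oligodendrocyte list, was at 1166, 549 and 411 CPM in members at 7 dpi and 744, 878 and 457 at 21 dpi, against 314, 302, 172, 273, 405 and 258 in other leukocytes. It was detected in 65.8%, 51.8%, 42.1%, 70.6%, 69.7% and 46.7% of members. Mbp, of myelin, was at 57.9 to 154 CPM in members. Il7r, the interleukin 7 receptor gene on the T cell list, was at 350.1, 152 and 318 CPM in members at 7 dpi and 221, 249 and 60.5 at 21 dpi, against 62.6, 75.1, 14.9, 70.9, 169 and 73.3 in other leukocytes. The exception was Tgfbr2-cKO 21 dpi, where the log2 ratio was −0.28 (95% counting interval −0.60 to 0.03). The nuclei with Spp1 and Plau had St18 at 514, 224, 168, 353, 570.4 and 295 CPM and Il7r at 127, 125, 41.4, 95.8, 245 and 34.8, and neither gene was past 2-fold against them in all of the 4 libraries compared.

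The libraries held 64798965 to 140310354 UMIs. Median UMIs per member were 6947.5, 7693.5 and 5081 at 7 dpi and 5550, 5632 and 7548 at 21 dpi. Of all barcodes, 553 occurred in more than 1 library, and no member shared its barcode with a member of another library. Tgfbr2, the targeted gene, stood at 298, 229 and 197 CPM in fibroblast nuclei at 7 dpi and 207, 183 and 176 at 21 dpi. It stood at 331, 286 and 155 CPM in the macrophages at 7 dpi and 283, 373 and 283 at 21 dpi. Libraries of this kind count the 3′ end of a transcript, which may lie outside the deleted exon, so these values check neither the deletion nor the labels.

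With 1 library per group, no comparison below has a test, and no value has a replicate error. Intervals are 95% counting intervals, exact Clopper-Pearson for shares, exact Poisson for CPM and exact conditional binomial for ratios, and they cover counting error and not the difference between mice. UMIs of Xist and of Y-linked genes told the female from the male nuclei of each library, so that values of each mouse could be set beside the pooled one. Some nuclei got no call and count in the pooled value only, which can therefore lie outside both mice. At 7 dpi, 29 female and 26 male of the 76 Ctrl members were told apart, 275 and 241 of the 654 ADWA11 members and 11 and 7 of the 19 Tgfbr2-cKO members. At 21 dpi these were 196 and 83 of 343, 759 and 2032 of 3283 and 74 and 62 of 165. All ADWA11 and Tgfbr2-cKO comparisons at 1 time share a Ctrl library, and the comparisons between times share libraries with them.

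The macrophages made up a larger share of leukocyte-marker nuclei with ADWA11 and at the later time. They were 76 of 5242 leukocyte-marker nuclei in Ctrl 7 dpi, or 1.45% (1.14 to 1.81). In ADWA11 7 dpi they were 654 of 7256, or 9.01% (8.36 to 9.7), and in Tgfbr2-cKO 7 dpi 19 of 3082, or 0.616% (0.372 to 0.961). At 21 dpi the counts were 343 of 5323 in Ctrl, or 6.44% (5.8 to 7.14), 3283 of 8763 in ADWA11, or 37.5% (36.4 to 38.5), and 165 of 2957 in Tgfbr2-cKO, or 5.58% (4.78 to 6.47). The ADWA11 shares lay above both other groups at each time, with intervals that did not overlap. The positive gene Cd5l was also detected in more neuron nuclei of ADWA11 than of the other groups at each time, as given above. The part of free RNA of the positive genes in these shares was not tested.

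In ratios, the share in ADWA11 was 6.22-fold that of Ctrl at 7 dpi (4.90 to 7.99) and 5.81-fold at 21 dpi (5.20 to 6.52). These sizes depended on the rule. On the log2 scale they were 2.64 and 2.54, against 3.64 and 3.48 with at least 4 of the 8 positive genes, and 2.76 and 3.64 with 0 negative genes. From 7 to 21 dpi it was 4.44-fold higher in Ctrl (3.46 to 5.78), 4.16-fold in ADWA11 (3.82 to 4.53) and 9.05-fold in Tgfbr2-cKO (5.62 to 15.4). The Tgfbr2-cKO share was 0.425 of the Ctrl share at 7 dpi (log2 scale, −1.23 with −2.04 to −0.49), and −0.46 (−2.12 to 1.01) with 0 negative genes, where 14 Ctrl and 6 Tgfbr2-cKO members remained. The later Tgfbr2-cKO share was 0.866 of Ctrl (0.715 to 1.05), and the direction of that ratio depended on the rule. With 0 of the 7 negative genes allowed, the shares were 0.921% in Ctrl and 1.56% in Tgfbr2-cKO, a log2 ratio of 0.76. With Col1a2 left out of the negative genes, they were 9.28% and 5.95%, a log2 ratio of −0.64. The smaller fibroblast RNA background of the Tgfbr2-cKO library moves with this difference, and its part was not tested.

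Both mice of each group gave the same order. For Tgfbr2-cKO against Ctrl, however, the intervals of the females and those of the males overlapped at both times. The female and male shares were 1.55% and 1.34% in Ctrl 7 dpi, 7.77% and 11.6% in ADWA11 7 dpi and 0.693% and 0.999% in Tgfbr2-cKO 7 dpi. At 21 dpi they were 7.31% and 6.25% in Ctrl, 38.4% and 39.5% in ADWA11 and 5.73% and 5.77% in Tgfbr2-cKO. After each nucleus was thinned to 2000 UMIs, which left out 3.03% to 13.9% of leukocyte-marker nuclei, the shares were 0.768%, 6.38% and 0.243% at 7 dpi and 4.82%, 34.7% and 2.88% at 21 dpi. At equal depth, ADWA11 again had the highest share at each time. Of all nuclei past the quality filter, the macrophages were 0.961%, 5.99% and 0.175% at 7 dpi and 2.84%, 25.9% and 2.61% at 21 dpi. Neuron nuclei were 349 of 7906, 391 of 10914 and 7080 of 10856 of these nuclei at 7 dpi. At 21 dpi they were 499 of 12069, 138 of 12656 and 1797 of 6328. The part of this tissue composition in the shares was not tested.

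Shares of other macrophage classes were set beside these. Microglia-marker nuclei were 15.1%, 4.42% and 31.2% of leukocyte-marker nuclei at 7 dpi and 6.11%, 0.571% and 17.3% at 21 dpi, lowest in ADWA11 at both times. Border-type nuclei, with genes such as Mrc1 and F13a1, were 10.1%, 25.1% and 3.44% at 7 dpi and 7.1%, 8.01% and 11.3% at 21 dpi, so that their order was that of the members at 7 dpi and not at 21 dpi. Nuclei with both Spp1 and Plau were 10.4%, 6.33% and 6.04% at 7 dpi and 5.9%, 0.514% and 3.31% at 21 dpi. These classes exclude members by definition, and also the other nuclei with 3 or more positive genes. With 2 and with more than 2 negative genes, such nuclei were 87 and 130 in Ctrl 7 dpi. They were 670 and 602 in ADWA11 7 dpi and 4 and 6 in Tgfbr2-cKO 7 dpi. At 21 dpi they were 167 and 85, 1113 and 297, and 64 and 21. The part of this condition in the class shares was not tested. Shares of 1 whole are not independent of each other.

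**Figure D2:**
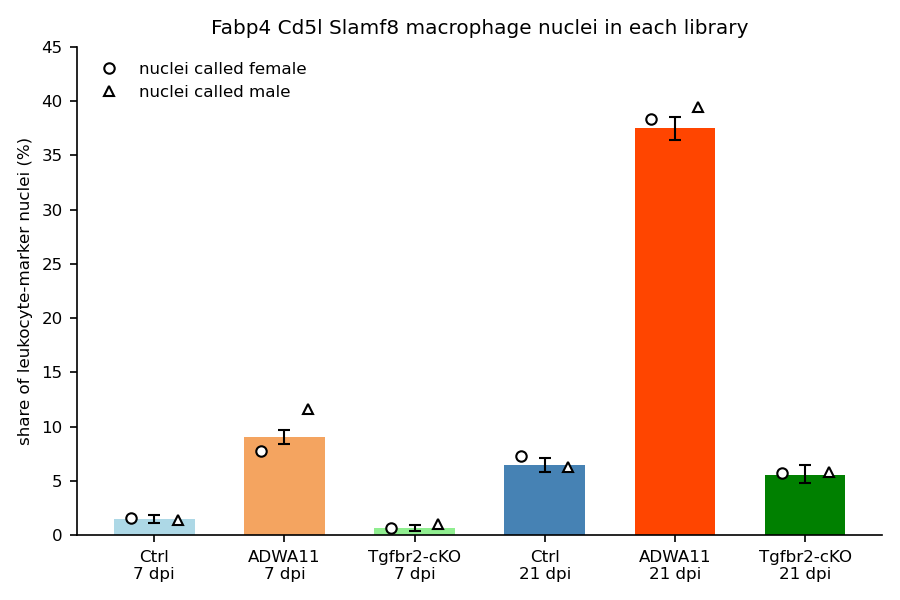
Share of Fabp4 Cd5l Slamf8 macrophages among leukocyte-marker nuclei (%) in each of the 6 libraries, with 95% Clopper-Pearson intervals for the pooled library and points for the female and male mouse. ADWA11 reached 9.01% at 7 dpi and 37.5% at 21 dpi, against 1.45% and 6.44% in Ctrl.

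Beside the genes of the rule, the macrophages shared a set of genes that were higher than in other leukocyte-marker nuclei of the same library. Across 9600 genes, 15 (0.156%) were at least 2-fold higher in each of the 5 libraries with 50 or more members, and 29 (0.302%) were at least 2-fold lower in each. The Tgfbr2-cKO 7 dpi library, with 19 members, was left out of these and of all later gene counts. After thinning to 2000 UMIs, 22 genes were higher and 55 lower, and they held 11 of the 15 and 17 of the 29. Genes correlated with the rule genes will differ here by construction, so the values describe the set and test nothing. The other leukocyte-marker nuclei include those left out only by negative genes, as counted above.

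Wfs1 led this list. It encodes wolframin, a membrane protein of the endoplasmic reticulum, and lies on chromosome 5 at 36966104-36989205. It was at 24.3, 62.6 and 31.0 CPM in members at 7 dpi and 96.5, 167 and 34.0 at 21 dpi, against 6.73, 21.5, 9.13, 18.0, 54.1 and 9.36 in other leukocytes, with log2 ratios of 1.54 to 2.42. Mgll, which encodes the lipase that splits monoglycerides, was at 289, 479.6 and 217 CPM at 7 dpi and 452, 1033 and 378 at 21 dpi, against 65.3, 222, 95.5, 152, 481 and 132 in other leukocytes (1.10 to 2.15). In every library the pooled member level of both genes exceeded that of the other leukocytes. Wfs1 in Ctrl 7 dpi had 10 UMIs in the female, at 49.2 CPM (23.6 to 90.4), and 2 in the male, at 9.69 (1.17 to 35.0). In the Tgfbr2-cKO 21 dpi female it was at 13.7 CPM (5.92 to 27.0). The intervals of that Ctrl male and that Tgfbr2-cKO female include the level of the other leukocytes. In Ctrl 7 dpi, however, Mgll was at 88.5 CPM (52.5 to 139.9) in the female and 67.8 (37.1 to 114) in the male, near the level of the other leukocytes, and most of its 167 UMIs lay in members with no sex call.

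Several of the 30 leading genes belong to lipid sensing and storage. Nr1h3, which encodes LXRα, was at 19.1, 31.0 and 15.5 CPM at 7 dpi and 41.6, 70.2 and 27.2 at 21 dpi, against 7.03, 14.1, 3.63, 11.7, 35.8 and 6.23 (log2 ratios 0.97 to 2.13). Fabp5, a second fatty acid carrier, was at 151, 159 and 139.5 CPM at 7 dpi and 166, 224 and 244 at 21 dpi, against 71.4, 88.1, 48.2, 63.2, 124 and 79.9 (0.85 to 1.61). Stra6l, related to a retinol receptor, had log2 ratios of 1.19 to 1.77. Pparg, which encodes PPARγ and was on a list rather than among the 30, was at 317, 430.2 and 132 CPM at 7 dpi and 491, 788 and 242 at 21 dpi, against 78.7, 267, 69.1, 127, 457 and 104 (0.69 to 2.01). Of the 13 measured genes of lipid metabolism, 1 (Mgll) was 2-fold higher in all 5 libraries by the pooled values, and the list's median lay between 0.40 and 1.12, beside medians of −0.04 to 0.03 over all genes. Against nuclei with Spp1 and Plau the list's median was 0.22 to 0.64 over 4 libraries. Of the 15 genes above, 4 were also at least 2-fold higher against them in each of 4 libraries. The summed lipid list was 4426, 5753 and 4178 CPM in members at 7 dpi and 4413, 5627 and 3193 at 21 dpi, against 3655, 6191, 2645, 3195, 5178 and 2741 in those nuclei, so that in ADWA11 7 dpi it was higher there than in members.

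Other leading genes had varied roles. Ctsl, which encodes the protease cathepsin L, was at 270.4, 401 and 597 CPM at 7 dpi and 362, 315 and 313 at 21 dpi, against 127, 184, 142, 183, 169.5 and 155 (0.89 to 1.12). Mcoln3, a cation channel of endosomes and lysosomes, had log2 ratios of 1.07 to 1.51. The 23 other measured genes of the lysosome and its proton pump had medians of 0.29 to 0.68, with 0 past 2-fold in all 5 libraries. Gadd45a, a growth arrest gene, had ratios of 1.19 to 2.29, and Fbxo32, which encodes a ubiquitin ligase subunit, of 1.17 to 1.64. Itgax, which encodes the integrin CD11c, was at 139, 78.5 and 178 CPM at 7 dpi and 130.2, 74.5 and 65.3 at 21 dpi, and its ratios were 0.84 to 2.00. Anpep, an aminopeptidase of the cell surface, had ratios of 0.87 to 1.77.

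Among the genes lower in members were genes of other cells, such as Nrxn3, Robo2 and Ptprd of neurons, Slc1a3 of astrocytes and Pecam1 and Tjp1 of endothelium, together with Ms4a4b of T cells. Of 13 general macrophage markers measured, 0 were 2-fold higher and 1, Cx3cr1, was 2-fold lower in all 5 libraries, with list medians of 0.18 to 0.49. Cx3cr1 encodes the fractalkine receptor of microglia and patrolling monocytes.

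**Figure D3:**
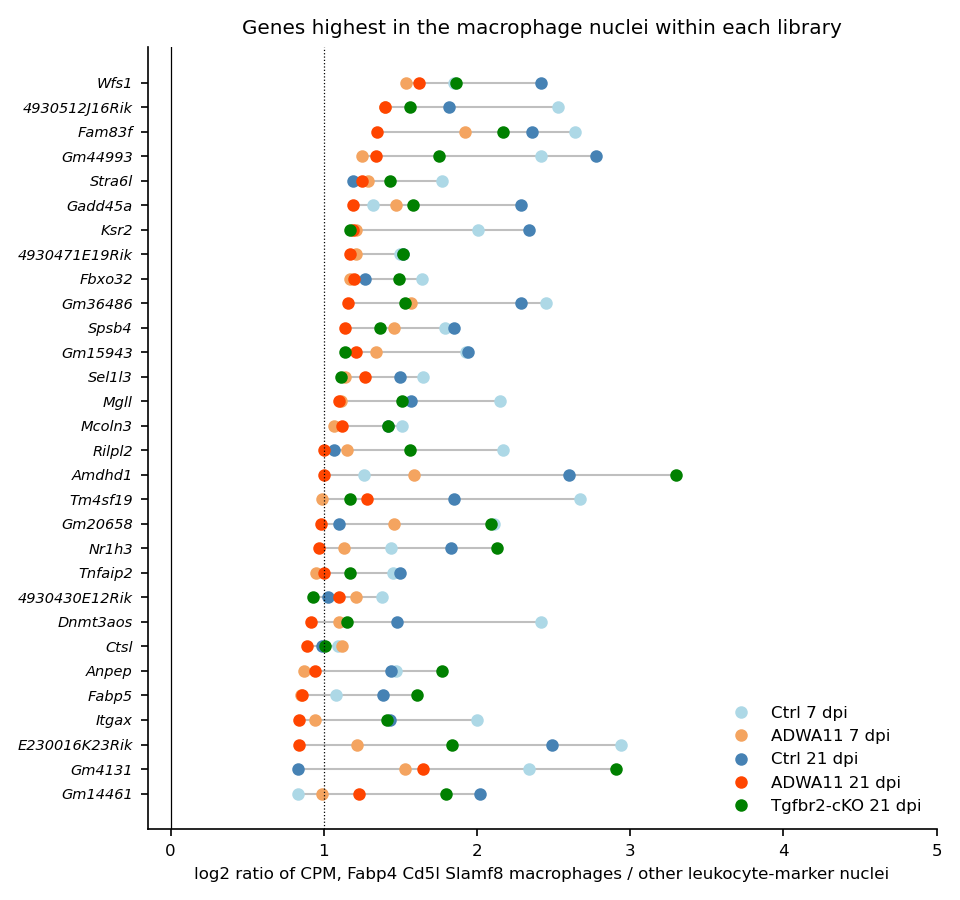
Log2 ratio of CPM in Fabp4 Cd5l Slamf8 macrophages to CPM in other leukocyte-marker nuclei of the same library, for the 30 leading genes that the rule did not use (rows) in the 5 libraries with at least 50 members (points); the dotted line marks 2-fold. Wfs1, at the top, ranged from 1.54 to 2.42.

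For gene levels between libraries, a gene counts as past 2-fold where its whole counting interval lies beyond 2-fold, among genes with at least 50 UMIs in both libraries together. In ADWA11 against Ctrl at 7 dpi, Pmepa1, Smad7, Tgfbi and Tgfbr1 of the TGFβ pathway were lower in the macrophages, and Slc40a1 and Tfrc of iron handling and Cd36 and Lpl of lipid uptake were higher. Of 10007 genes, 256 (2.56%) were higher and 66 (0.660%) lower past 2-fold. Among the 5309 genes at least as high in members as in neuron and fibroblast nuclei, 43 (0.810%) were higher and 45 (0.848%) lower. The difference between these counts lay in genes such as Robo2, Gli3 and Gja1, which were among the 10 largest ratios and are not macrophage genes. The neuron markers had 3 of 7 measured genes higher and 1 lower (median 1.73, but −0.07 with the mean CPM per nucleus and −0.28 without nuclei with 4 or more non-myeloid markers), and their summed level in members was 371 CPM in Ctrl and 726 in ADWA11. Markers of oligodendrocyte precursors had 3 of 6 genes higher and 0 lower (median 1.93), with sums of 269 and 1008 CPM.

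Of 18 measured genes of the TGFβ pathway, 4 were lower past 2-fold and 1 higher, with a median of −0.30 beside 0.08 over all genes. Tgfbr1, the type I receptor, was at 1484 CPM in Ctrl 7 dpi and 514 in ADWA11 7 dpi, a log2 ratio of −1.53 (−1.64 to −1.42). Pmepa1, a feedback inhibitor induced by TGFβ, was at 175 and 33.6 CPM (−2.38, −2.74 to −2.02). Smad7, the inhibitory SMAD, was at 95.3 and 25.3 CPM (−1.91, −2.37 to −1.44), and Tgfbi, a secreted matrix protein named for its induction by TGFβ, at 158 and 37.3 CPM (−2.08, −2.44 to −1.71). Tgfbr3, the co-receptor betaglycan and a gene of fibroblasts, was the 1 higher gene, with 1 UMI in Ctrl (4.70, 2.21 to 10.01). Skil, a repressor of SMAD activity, had a ratio of −1.30 and was not past 2-fold.

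The 4 lower genes were low in both ADWA11 mice. Female and male levels of Pmepa1 were 177 and 131 CPM in Ctrl and 26.8 and 26.4 in ADWA11, those of Tgfbr1 1106 and 1434 against 533 and 552, and those of Smad7 103 and 102 against 26.8 and 19.3. Other leukocyte-marker nuclei of the same libraries went the same way, with Pmepa1 at 361 and 60.1 CPM and Tgfbr1 at 832 and 423. Further genes at the lower end were Csf1, the growth factor of macrophages (357 and 132 CPM, −1.43), Pdgfa, a growth factor for fibroblasts and glia (156 and 37.1 CPM, −2.07), Cx3cr1 (86.7 and 20.4 CPM, −2.09, −2.58 to −1.58) and Runx3, a transcription factor gene (−2.81). Tnfsf8, the ligand of CD30, had the lowest named ratio at −3.19.

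On the iron and haem list, 3 of 9 measured genes were higher and 0 lower past 2-fold (median 1.14), and 1 of the 3 was Hpgd, not an iron gene. Slc40a1, which encodes ferroportin, the only known iron exporter of animal cells, was at 45.1 CPM in Ctrl and 363 in ADWA11 (3.01, 2.45 to 3.63), an 8.05-fold ratio. Tfrc, the transferrin receptor, was at 38.1 and 189 CPM (2.31, 1.70 to 2.99). Hpgd, the enzyme that inactivates prostaglandins, is also on this list, at 12.1 and 92.0 CPM (2.92, 1.87 to 4.24). The Ctrl mice differed in ferroportin, with 19.7 CPM in the female and 82.4 in the male, and both ADWA11 mice were higher, with 421 and 379. Members with neither Fabp4 nor Cd5l were 39.5% of Ctrl and 19.1% of ADWA11 members at 7 dpi. Within Ctrl 21 dpi, Slc40a1 was at 392 CPM in members with both genes and at 65.0 in those with neither. The part of this mixture in the Slc40a1 ratio was not tested.

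Of 14 measured genes of lipid metabolism, 2 were higher and 0 lower (median 0.21 beside 0.08 over all genes), so that 2 named genes and not the list as a whole were past 2-fold. Lpl, lipoprotein lipase, was at 314 and 965 CPM (1.62, 1.41 to 1.84), with 256 and 378 in the Ctrl mice and 1156 and 935 in the ADWA11 mice. Cd36, the fatty acid and oxidized lipid receptor, was at 366 and 1072 CPM (1.55, 1.35 to 1.76). Pltp, phospholipid transfer protein and an LXR target, was at 91.9 and 318 CPM (1.79, 1.40 to 2.21). Mrc1, the mannose receptor, was at 123 and 529.8 CPM (2.11, 1.77 to 2.47), though the Ctrl mice were far apart at 49.2 and 247. In other leukocytes the same genes were also higher in ADWA11, from 67.6 to 382 CPM for Slc40a1, 172 to 730.4 for Lpl, 171 to 827 for Cd36 and 195 to 802 for Mrc1. Arg1, arginase 1, had 0 UMIs in Ctrl and was 4.09-fold higher in ADWA11 with Ctrl set at the floor of 3 counts.

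At 21 dpi the ADWA11 members had higher levels of MHC class II and chemokine genes than Ctrl members, while Pmepa1, Smad7 and Tgfbr1 were again lower. Of 13447 genes, 101 (0.751%) were higher and 434 (3.23%) lower past 2-fold. In 98 (0.729%) and 361 (2.68%) of them, respectively, both ADWA11 mice also lay on the same side of both Ctrl mice. Among 6529 genes at least as high in members as in neuron and fibroblast nuclei, 88 (1.35%) were higher and 28 (0.429%) lower, so the larger number of lower genes came from genes higher in neurons or fibroblasts than in members. Of 8 fibroblast markers, Col1a2 of the rule included, 4 were lower and 0 higher (median −1.23), and of 6 measured neuron markers 4 were lower and 0 higher (median −1.78). Astrocyte markers had 5 of 8 genes lower and 0 higher (median −1.62).

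Of 8 measured genes of MHC class II presentation, 5 were higher past 2-fold and 0 lower (median 1.77, beside −0.04 over all genes). H2-Aa, a class II chain on chromosome 17 at 34282744-34287823, was at 41.6, 51.7 and 31.0 CPM at 7 dpi and 66.9, 235 and 19.7 at 21 dpi. Its ratio of ADWA11 to Ctrl at 21 dpi was 1.81 (1.57 to 2.06). H2-Eb1 was at 37.4 CPM in Ctrl and 196 in ADWA11 (2.39, 2.07 to 2.73), H2-Ab1 at 47.6 and 192 (2.01, 1.73 to 2.31), and Cd74, the invariant chain that guides class II molecules, at 148 and 491 (1.73, 1.57 to 1.89). Ciita, the master activator of class II genes, was at 49.9 and 186 CPM (1.90, 1.62 to 2.19).

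The class II genes were high in both ADWA11 mice. H2-Aa was at 61.2 and 64.2 CPM in the Ctrl mice and 252 and 226 in the ADWA11 mice, and Cd74 at 139 and 171 against 496 and 469. The share of members with at least 2 class II genes was 26.3%, 28.3% and 21.1% at 7 dpi and 33.8%, 78.3% and 18.8% at 21 dpi, and 11.8%, 11.0%, 11.1%, 15.1%, 50% and 6.13% after thinning to 2000 UMIs. Other leukocytes, which include nuclei left out only by negative genes, showed the same order. Cd74 was at 160.5 CPM in Ctrl and 594 in ADWA11 there, and H2-Aa at 64.8 and 278. At least 2 class II genes were detected in 23.4% and 68.5% of them at 21 dpi, and in 9.65% and 48.5% after thinning. In neuron nuclei the summed class II level was 53.4 CPM in Ctrl and 193 in ADWA11, against 403 and 1389.9 in members. Dendritic cell markers, 10 in all, summed to 36.5 CPM in Ctrl members and 80.4 in ADWA11 members at 21 dpi. The parts of free RNA and of dendritic cells in the member levels were not tested.

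Of 20 measured chemokines and receptors, 9 were higher, the rule gene Ccl6 among them, and 1 lower past 2-fold (median 1.80). Ccl8, an attractant of monocytes and T cells on chromosome 11 at 82115185-82116799, was at 0, 9.32 and 7.75 CPM at 7 dpi and 5.54, 94.9 and 15.0 at 21 dpi. Its late ratio of ADWA11 to Ctrl was 4.10 (3.29 to 5.05), and the mice gave 5.03 and 2.14 CPM in Ctrl and 57.6 and 111 in ADWA11. Ccl4 was at 16.2 and 67.3 CPM (2.06, 1.58 to 2.59) and Ccl9 at 8.31 and 34.0 (2.03, 1.36 to 2.79). Ccl5, Ccl7, Ccl12, Cxcl2, Cxcl9 and the rule gene Ccl6 made up the other 6. For Ccl7 and Cxcl9 the intervals of both females and of both males overlapped. Those of the females overlapped for Ccl12 and those of the males for Ccl5. Ccl7 had 1 UMI in Ctrl and Ccl12 and Cxcl2 had 3 each. Cx3cr1 was the lower receptor, at 41.1 and 11.2 CPM (−1.88). In other leukocytes Ccl8 was at 16.1 CPM in Ctrl and 158 in ADWA11. The summed chemokine level was 49.9 and 88.1 CPM in neuron nuclei, 277 and 533 in members and 391 and 769 in other leukocytes. It was 599 and 1255 in border-type, 586 and 718 in microglia-marker and 429 and 369.9 in Spp1 Plau nuclei.

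Il1b, the inflammatory cytokine, was at 0.923 and 11.2 CPM with 2 UMIs in Ctrl (3.60, 1.73 to 6.65). Its intervals in the females overlapped, at 1.68 (0.203 to 6.05) and 7.46 CPM (5.20 to 10.4). Of 15 measured interferon-stimulated genes 2 were past 2-fold, both guanylate-binding proteins and both higher (median 1.46). Gbp2 was at 6.46 and 24.7 CPM (1.93, 1.17 to 2.81), and Gbp5 had a ratio of 1.78. The Gbp2 difference lay in the males, with 0 UMIs in Ctrl and 28.0 CPM in ADWA11, whereas the intervals of the females overlapped, at 10.1 (5.20 to 17.6) and 13.2 CPM (10.1 to 16.9). Scd1, a fatty acid desaturase and LXR target, had 1 UMI in Ctrl and stood at 9.85 CPM in ADWA11 (4.41, 1.92 to 9.73). The intervals of the males overlapped for Scd1. Mgll was higher (1.19, 1.10 to 1.29), while Lpl (0.32) and Slc40a1 (226 and 377 CPM, 0.74) were not past 2-fold at this time. Receptors of resident tissue macrophages were detected in ADWA11 members at low levels, with Timd4 at 8.12 CPM and Marco at 4.57. Both had 0 UMIs in Ctrl, and were 5.86-fold and 3.30-fold higher with Ctrl set at the floor of 3 counts. A list of 9 genes of liver and spleen macrophages summed to 339.8 and 556 CPM in members (Ctrl and ADWA11) and 169.8 and 397 in other leukocytes. A list of 14 genes of lung macrophages summed to 773 and 1431 in members, 445 and 1352 in other leukocytes and 1957 and 3398 in border-type nuclei.

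The TGFβ pathway had 5 of 19 measured genes lower and 0 higher (median −0.67). Pmepa1 was at 109 CPM in Ctrl and 22.7 in ADWA11 (−2.26, −2.49 to −2.03), Tgfbr1 at 838 and 387 (−1.11, −1.19 to −1.04) and Smad7 at 40.6 and 13.6 (−1.58, −1.93 to −1.22). Smad6, a further inhibitory SMAD, was at 31.4 and 9.94 CPM (−1.66). Ltbp1, which binds latent TGFβ and is a fibroblast gene, was at 35.6 and 3.64 CPM (−3.29). Tgfbr2 itself had a ratio of 0.40. Both mice of each group kept the order, with Pmepa1 at 85.5 and 92.1 CPM in Ctrl and 24.3 and 16.4 in ADWA11, and Tgfbr1 at 839 and 938 against 375 and 401. In other leukocytes, Pmepa1 was at 195 and 53.4 CPM and Tgfbr1 at 773 and 301.

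Other genes low with ADWA11 at 21 dpi included Dkk2, a secreted modulator of Wnt signals (71.1 and 3.73 CPM, −4.25, −4.66 to −3.85), and Fcrls, an Fc receptor-like gene of microglia (48.0 and 5.04 CPM, −3.25). Htr2b, a serotonin receptor, had a ratio of −2.69, and Spp1, osteopontin, at 382 and 143 CPM (−1.42). Htr2b was lower at 7 dpi too, with a ratio of −2.29. Spp1 was at 426 and 411 CPM in the Ctrl mice and 98.1 and 151 in the ADWA11 mice. Of the rule genes, Cd5l (1.62) and Ccl6 (1.57) were higher past 2-fold and Slamf8 (1.24) and Fabp4 (0.95) were not, given here as description. Hbb-bs, a haemoglobin chain gene named after its value was seen, had a ratio of 4.75.

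**Figure D4:**
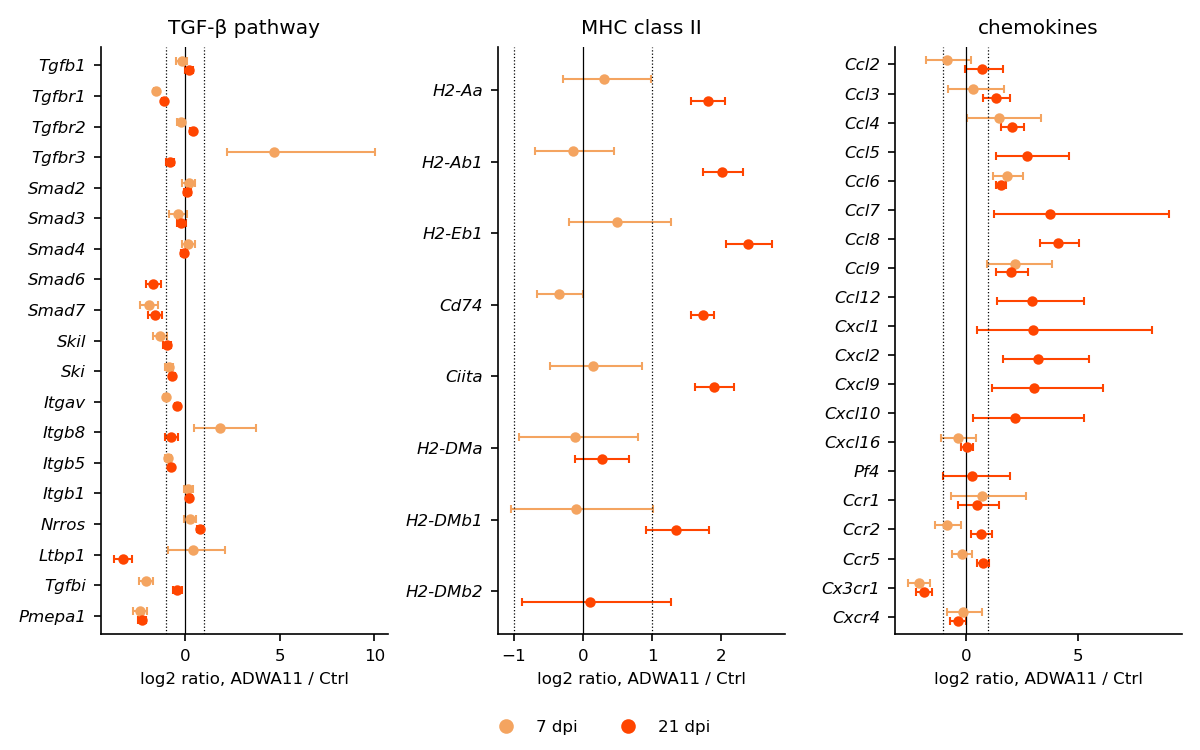
Log2 ratio of CPM in Fabp4 Cd5l Slamf8 macrophages, ADWA11 over Ctrl, at 7 dpi (light) and 21 dpi (dark) for the genes of the TGFβ pathway, MHC class II and chemokine lists, with 95% counting intervals and dotted lines at 2-fold; genes with under 50 UMIs or with none in 1 library are not drawn, and Ccl6 is a rule gene. Pmepa1, Smad7 and Tgfbr1 lay below the lower line at both times, and 5 class II genes above the upper line at 21 dpi.

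**Figure D5:**
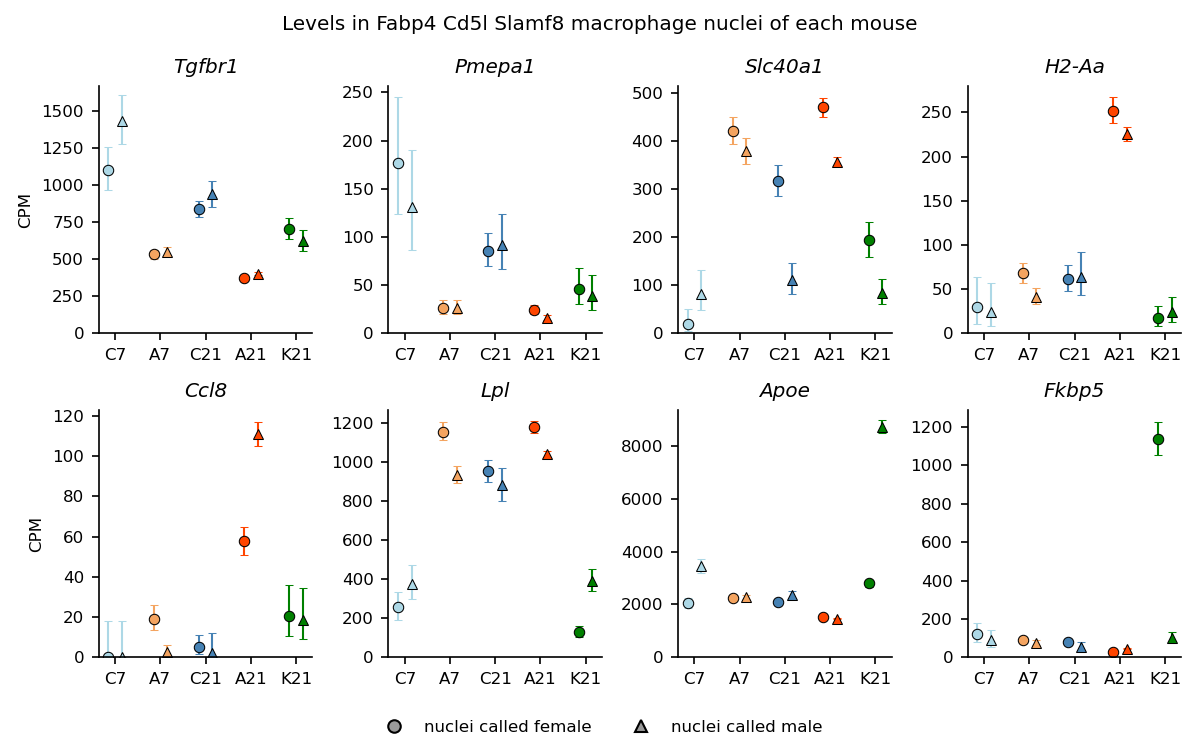
CPM of 8 genes in Fabp4 Cd5l Slamf8 macrophages of the female and the male mouse of each library (C, A and K stand for Ctrl, ADWA11 and Tgfbr2-cKO, and 7 and 21 for dpi), with 95% Poisson intervals; Tgfbr2-cKO 7 dpi, with 19 members, is not drawn. Pmepa1 and Tgfbr1 were low in all 4 ADWA11 mice, and the Tgfbr2-cKO mice were far apart in Apoe (2803 and 8716) and Fkbp5 (1137 and 101).

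In Tgfbr2-cKO against Ctrl at 21 dpi, members had lower levels of Mmp12, Lpl and Cd36 in both mice, and higher levels of Apoc1, Apoc4 and C1qa in the library as a whole. Of 8679 genes, 191 (2.20%) were higher and 266 (3.06%) lower past 2-fold, and in 124 (1.43%) and 258 (2.97%) both Tgfbr2-cKO mice also lay on the same side of both Ctrl mice. Among 4956 genes at least as high in members as in neuron and fibroblast nuclei, 35 (0.706%) were higher and 26 (0.525%) lower. Most of the genes past 2-fold were therefore higher in neurons or fibroblasts than in members. Of 8 fibroblast markers 6 were lower and 0 higher (median −3.27, Col1a2 of the rule among them), and of 8 neuron markers 7 were higher and 0 lower (median 2.52, but −0.29 in female nuclei alone). F13a1 and P2ry12, also higher here, are negative genes of the rule, and their room differed between these libraries as described above.

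Of 18 measured genes of cholesterol handling, 3 were higher and 0 lower (median 0.37). The summed cholesterol list was 7410.2 CPM in Ctrl and 10931 in Tgfbr2-cKO members, and 6252 and 7706 in other leukocytes. Apoe, the main lipid carrier of brain and macrophages, on chromosome 7 at 19696109-19699188, was at 2693, 2143 and 2294 CPM at 7 dpi and 2111, 1517 and 4663 at 21 dpi. Its ratio of Tgfbr2-cKO to Ctrl was 1.14 (1.09 to 1.20), but the Tgfbr2-cKO mice had 2803 and 8716 CPM and the Ctrl mice 2096 and 2366. With at least 4 positive genes in the rule the ratio turned, to −0.08. Apoc1, from the same gene cluster, was at 9.70 and 118 CPM (3.61, 2.95 to 4.34), and Apoc4 had a ratio of 3.88. The male Tgfbr2-cKO mouse thus carried most of the Apoe difference. C1qa, a complement subunit, was at 139 and 416 CPM (1.58, 1.37 to 1.78).

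Further genes at the higher end were Ms4a4a, a macrophage membrane gene, at 27.7 and 218 CPM (2.98, 2.58 to 3.40), with 28.5 and 23.5 in the Ctrl mice and 364 and 86.2 in the Tgfbr2-cKO mice. Kynu, an enzyme of tryptophan breakdown, was at 20.8 and 129 CPM (2.64, 2.16 to 3.14), with 27.7 and 12.8 against 151 and 111. Fkbp5, a co-chaperone induced by glucocorticoids, was at 73.9 and 651 CPM (3.14, 2.90 to 3.39). The female Tgfbr2-cKO mouse had 1137 CPM of Fkbp5 and the male 101, so 1 mouse decided that value. In other leukocytes Fkbp5 was at 151 and 696 CPM.

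Of 11 measured genes of matrix remodelling, 6 were lower and 0 higher past 2-fold (median −1.27), namely Mmp12, Mmp13, Timp3, Adam12, Fn1 and Sparc, several of which fibroblasts express. Among the genes at least as high in members as in neuron and fibroblast nuclei, the median of the list turned to 0.25. The summed matrix list was at 1752 CPM in Ctrl and 855 in Tgfbr2-cKO members. In other leukocytes it was at 1818 and 925, so it was lower there too. Mmp12, the macrophage elastase, was at 420.2 CPM in Ctrl and 40.8 in Tgfbr2-cKO (−3.36, −3.77 to −2.99), with 298 and 649 in the Ctrl mice and 77.2 and 15.0 in the Tgfbr2-cKO mice. Mfge8, which bridges dying cells to macrophages, was at 42.5 and 8.16 CPM (−2.38).

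Lpl was at 834 and 210.2 CPM (−1.99, −2.17 to −1.81) and Cd36 at 463 and 95.9 (−2.27, −2.54 to −2.02), and these were the 2 lower genes of the 12 measured in lipid metabolism (median −0.26). Lpl was at 952 and 882 CPM in the Ctrl mice and 130.4 and 393 in the Tgfbr2-cKO mice, and Cd36 at 535 and 527 against 172 and 13.1. The summed lipid list was 4413 CPM in Ctrl and 3193 in Tgfbr2-cKO members, and 2157 and 1783 in other leukocytes. Wfs1, which led the genes of the set, was lower as well (−1.50, −1.98 to −1.05), and Il7r had a ratio of −1.87 (−2.21 to −1.54). H2-Aa was the 1 class II gene of 7 past 2-fold (−1.76, −2.39 to −1.18), while H2-Ab1 (−1.43) and H2-Eb1 (−1.20) were not.

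Of 19 measured genes of the TGFβ pathway, 1 was past 2-fold in this comparison (list median −0.24), beside 2.20% of all genes higher and 3.06% lower. Pmepa1 (109 and 51.0 CPM, −1.09), Tgfbr1 (838 and 633 CPM, −0.40) and Tgfb1 (113 and 113 CPM) were not past 2-fold. Female and male levels of Pmepa1 were 85.5 and 92.1 CPM in Ctrl and 46.3 and 39.3 in Tgfbr2-cKO. The 1 gene was Ltbp1, with 0 UMIs in Tgfbr2-cKO and 17.4-fold lower with that library set at the floor of 3 counts. The Ctrl library that serves here also serves the ADWA11 comparison, where Pmepa1 was at −2.26 and Tgfbr1 at −1.11. The difference between the ADWA11 and the Tgfbr2-cKO ratios was not tested.

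Between 7 and 21 dpi, members of both Ctrl and ADWA11 libraries went from higher to lower levels of Spp1 and Csf1, and ADWA11 members from higher to lower levels of most cell cycle genes. In Ctrl, of 7569 genes, 406 (5.36%) were higher and 51 (0.674%) lower at 21 dpi, and among 4342 genes at least as high in members as in neuron and fibroblast nuclei 45 (1.04%) were higher and 42 (0.967%) lower. In ADWA11, of 13823 genes, 310 (2.24%) were higher and 608 (4.40%) lower, and among 6457 such genes 165 (2.56%) were higher and 90 (1.39%) lower. The ADWA11 comparison was added after the data were seen. Fibroblast markers had 6 of 8 genes higher at 21 dpi in Ctrl (median 2.07), and neuron markers 6 of 7 lower in ADWA11 (median −2.35). Astrocyte markers had 6 of 7 genes higher in Ctrl (median 3.29), and markers of oligodendrocyte precursors 6 of 7 lower in ADWA11 (median −3.05). The part of these cell types in the values below was not tested.

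Spp1 stood at 2872, 1509 and 3077 CPM at 7 dpi and 382, 143 and 731 at 21 dpi. Its ratio of 21 to 7 dpi was −2.91 in Ctrl (−3.03 to −2.79) and −3.40 in ADWA11, and it was detected in 96.1%, 96.8% and 100.0% of members at 7 dpi against 57.7%, 29.8% and 65.5% at 21 dpi. Csf1 was at 357, 132 and 109 CPM at 7 dpi and 24.5, 17.4 and 21.8 at 21 dpi, a ratio of −3.87 in Ctrl (−4.33 to −3.43) and −2.93 in ADWA11. Every mouse of the Ctrl and ADWA11 libraries kept this order, with Csf1 at 428 and 334 CPM and 143 and 138 at 7 dpi and at 14.5 to 27.8 at 21 dpi. Itgav, the αv integrin chain, was also lower, at −1.99 in Ctrl (1220.1 and 308 CPM) and −1.39 in ADWA11. In other leukocytes 5 genes of the study's score for scar-associated macrophages, Spp1 among them, summed to 1731 and 1715 CPM at 7 dpi (Ctrl and ADWA11). At 21 dpi the sums were 955 and 539, so they were lower there too. In members they were 3842 and 2164, then 1020.4 and 764.

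Most cell cycle genes were lower at 21 dpi in ADWA11, and fewer were measured in Ctrl. Mki67, a marker of cycling cells, was at 76.3, 95 and 46.5 CPM at 7 dpi and 12.9, 6.53 and 6.8 at 21 dpi (−2.56 in Ctrl, −3.30 to −1.84, and −3.86 in ADWA11). In Ctrl the male carried the difference, with 150.2 CPM at 7 dpi and 4.28 at 21 dpi, and the intervals of the female overlapped, at 24.6 (7.98 to 57.4) and 17.6 (10.9 to 26.9). The ADWA11 mice had 81.7 and 85.4 and then 7.04 and 7.05. Of 25 measured cell cycle genes 22 were lower and 0 higher in ADWA11 (median −3.02), and of 9 measured in Ctrl 4 were lower and 0 higher (median −1.41). At least 3 cell cycle genes were detected in 17.1%, 26.0% and 5.26% of members at 7 dpi and 3.79%, 3.78% and 3.03% at 21 dpi. After thinning the shares were 7.89%, 13.5% and 5.56%, then 1.81%, 0.711% and 0 of 163 nuclei, which allows up to 2.24%. Among other leukocytes the shares before thinning were 20.1%, 30.7% and 14.3% at 7 dpi. At 21 dpi they were 6.06%, 4.12% and 5.44%, so they were lower there as well.

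In the Ctrl libraries, the pooled levels of ferroportin and transferrin receptor were higher at 21 dpi. Members with neither Fabp4 nor Cd5l were 39.5% of the Ctrl members at 7 dpi and 21.0% at 21 dpi. The part of this mixture in the levels was not tested. On the iron and haem list, which also holds Hpgd, 3 of 9 measured genes were higher past 2-fold and 0 lower (median 1.39). Slc40a1 was at 45.1 CPM at 7 dpi and 226 at 21 dpi (2.32, 1.76 to 2.95) and Tfrc at 38.1 and 227 (2.57). The female carried most of the Slc40a1 difference, with 19.7 CPM (5.36 to 50.4) at 7 dpi and 318 (286 to 351) at 21 dpi, whereas the intervals of the male overlapped, at 82.4 (48.0 to 132) and 111 (83.1 to 146). Lpl (1.41, 1.19 to 1.64), Pltp (1.90) and Wfs1 (1.99, 1.21 to 2.89, with overlapping intervals in the female) were higher as well, and the lysosomal protease Ctsd was lower, at 2019 and 884 CPM (−1.19).

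In ADWA11 the class II list had 6 of 8 genes higher at 21 dpi and 0 lower (median 2.02), and the chemokine list 7 of 20 higher and 0 lower (median 0.80). Ccl8 had a ratio of 3.35, and Il1b one of 4.99 with 2 UMIs at 7 dpi. Ctsk, cathepsin K, was at 17.2 and 93.1 CPM (2.43), and Cd36 was lower, at 1072 and 482 (−1.15). The T cell and NK cell list, whose genes macrophages mostly lack, had 6 of 10 genes higher (median 1.87), among them Cd3e and Skap1. Its summed level was 183 CPM at 7 dpi and 362 at 21 dpi in members, of which Il7r made up 152 and 249, and 157 and 918 in other leukocytes. Neutrophil markers, 8 in all, summed to 167 CPM at 7 dpi and 204 at 21 dpi in members, and to 136 and 225 in other leukocytes. The parts of free T cell and neutrophil RNA in these counts were not tested.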

How the data were processed

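Single-nucleus RNA-seq (10x Genomics 3′ v3.1) was run on nuclei sorted by DAPI from dissected PT lesions. The authors aligned reads to mm10, per the file headers with Cell Ranger 7.2.0, and deposited filtered UMI counts per gene and barcode, not normalized, for 32285 features. Groups were taken from the labels. No column belonged to other samples (0).

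Nuclei were chosen by the rule given above. The members and the gene lists (43 lists, 515 of 520 entries matched) were chosen with earlier results of these data known. UMIs were summed over members per library and given as CPM of non-mitochondrial UMIs. A group at 0 was set at a floor of 3 counts for its ratio, which is then not the end of a 95% interval. With 1 library per group there was no test. A gene was called where its whole 95% interval lay beyond 2-fold, with at least 50 UMIs in both libraries together and at least 50 members in each. Named genes were all genes of the rule and lists, the 30 genes with the highest lowest log2 ratio over libraries (members against other leukocytes, at least 5% of members with a UMI) and the 10 largest ratios in each direction of a comparison. Genes outside that rule were named after their values were seen. Results of some genes are not reported here. Doublets were not called, and nuclei with markers of non-myeloid classes were left out in alternatives. Shares were also compared after thinning each nucleus to 2000 UMIs. The nucleus filter of the study, which leaves out the top and bottom 2.5 percentiles, was one alternative. The others changed the rule, the minimum count, the scaling and the mouse. The calling script was tested on simulated data with known changes.

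Sequencing depth was 64798965 to 140310354 UMIs per library, and intervals cover counting error only. Python 3.11.15, numpy 2.4.6, scipy 1.17.1, pandas 2.3.3 and matplotlib 3.10.9 were used, with R 4.3.3 and edgeR 4.0.16 for TMM scaling factors of the counts. Gene positions came from GENCODE on GRCm38.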

Additional observations from a re-analysis of the deposited data

Results flagged for a closer look

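For ADWA11 against Ctrl, 81 genes were past 2-fold in opposite directions at 7 and at 21 dpi in the members, and 45 in the same direction. For 21 against 7 dpi, 31 genes were past 2-fold in opposite directions in Ctrl and ADWA11, and 91 in the same direction. Values follow for those genes that a list or the naming rule holds. These differences between ratios were not tested. The log2 ratios of ADWA11 to Ctrl at 7 and at 21 dpi were 2.25 and −1.66 for Tnr, 2.99 and −1.93 for Opcml, 4.13 and −1.90 for Samd5, 1.73 and −4.11 for Syt1, and 4.15 and −1.45 for 2610307P16Rik. They were 1.86 and −1.57 for Vcan, 2.18 and −2.57 for Ghr, 3.50 and −1.73 for Angpt1, and 3.93 and −1.22 for Prdm6. For 21 against 7 dpi, the ratios in Ctrl and in ADWA11 were 2.07 and −2.34 for Ptprt, 2.48 and −3.36 for Syt1, 4.18 and −1.43 for 2610307P16Rik, and 1.86 and −1.31 for Fgf14. Syt1, Opcml and Fgf14 are neuronal genes, and the summed neuron markers of members moved with them, at 371 and 726 CPM at 7 dpi and 813 and 307 at 21 dpi (Ctrl and ADWA11). Tnr and Vcan are on the list of oligodendrocyte precursors, whose sum in members was 269 and 1008 CPM at 7 dpi and 146 and 64.7 at 21 dpi. The part of these markers in the values was not tested.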

How the results depend on the processing

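No paired analysis was possible because each group is 1 library and the labels give no replicate numbers. Comparisons within female and within male nuclei are given below. Of the shares and counts, 98 alternatives stayed close to the reported value and 74 moved further. Close meant within the 95% counting interval of a ratio or, for counts of genes, within 1.5 times the reported count. No share turned a direction whose interval excluded no difference, and a count of genes has no direction to turn. The Tgfbr2-cKO share at 21 dpi, whose interval includes no difference, changed sign with 0 of 7 negative genes. Of the genes called past 2-fold and named, 783 of 871 repeats kept the call and 88 did not. The settings that changed only the minimum count or restricted the genes left each ratio as it was, so there a call could only be kept. These settings are among the 871 repeats. The cause of each move was not tested except where the setting itself leaves out genes or nuclei.

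Shares are given as log2 ratios in the order Tgfbr2-cKO and ADWA11 against Ctrl, then 21 against 7 dpi. Over all nuclei past the quality filter, Tgfbr2-cKO 7 dpi was at −2.46, ADWA11 21 dpi at 3.19 and Ctrl over time at 1.56. With 0 of 7 negative genes, Tgfbr2-cKO was at −0.46 (7 dpi) and 0.76 (21 dpi), ADWA11 21 dpi at 3.64, Ctrl over time at 1.79 and ADWA11 over time at 2.67. With Col1a2 left out of the negative genes, Tgfbr2-cKO was at −2.09 and −0.64 and ADWA11 over time at 1.71. Thinned to 2000 UMIs, ADWA11 was at 3.06 and 2.85, Tgfbr2-cKO 21 dpi at −0.74, Ctrl over time at 2.65 and ADWA11 over time at 2.44. With at least 4 of 8 positive genes, ADWA11 was at 3.64 and 3.48, Ctrl over time at 3.15 and ADWA11 over time at 2.99. Without nuclei with 2 or more non-myeloid markers, ADWA11 21 dpi was at 2.72. Male nuclei gave −0.43 for Tgfbr2-cKO 7 dpi, 3.11 for ADWA11 7 dpi and 1.77 for ADWA11 over time, and female nuclei 2.31 for the last.

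Counts of genes past 2-fold moved as follows, each as higher or lower. For ADWA11 7 dpi they were 144 higher and 122 lower with Col1a2 left out, 167 higher with the mean CPM per nucleus, 110 lower with no minimum count, 34 lower with at least 200 UMIs, 83 higher without nuclei with 4 or more non-myeloid markers, and 43 higher among genes at least as high in members as in neuron and fibroblast nuclei. For Tgfbr2-cKO 21 dpi they were 347 higher with no minimum count, 79 higher and 104 lower with at least 200 UMIs, 102 lower with at least 4 positive genes, 93 higher and 62 lower without nuclei with 4 or more non-myeloid markers, 35 higher and 26 lower among the restricted genes, 67 higher in female and 97 lower in male nuclei. For ADWA11 21 dpi they were 671 lower with Col1a2 left out, 47 higher and 149 lower with at least 4 positive genes, 279 lower with at least 200 UMIs, 34 higher and 43 lower without 2 or more and 134 lower without 4 or more non-myeloid markers, 28 lower among the restricted genes, 53 higher and 74 lower in female and 65 higher in male nuclei. For Ctrl over time they were 94 lower with Col1a2 left out, 97 lower with no minimum count, 157 higher and 25 lower with at least 200 UMIs, 85 higher without 4 or more non-myeloid markers and 45 higher among the restricted genes. For ADWA11 over time they were 301 lower with at least 4 positive genes, 204 higher and 320 lower with at least 200 UMIs, 107 higher and 147 lower without 2 or more and 358 lower without 4 or more non-myeloid markers, 165 higher and 90 lower among the restricted genes, 245 lower in female and 327 lower in male nuclei. Genes lower in members than in other leukocytes numbered 55 after thinning. Against microglia-marker nuclei 92 were higher, against border-type nuclei 47, and against Spp1 Plau nuclei, over 4 libraries, 24 were higher and 11 lower.

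Directions turned for the neuron list in ADWA11 7 dpi (−0.07 with the mean CPM per nucleus and −0.28 without 4 or more non-myeloid markers) and in female nuclei of Tgfbr2-cKO 21 dpi (−0.29), for Apoe in Tgfbr2-cKO 21 dpi with at least 4 positive genes (−0.08), and for matrix remodelling in Tgfbr2-cKO 21 dpi among the restricted genes (0.25). Alternatives that left under 50 members were not run, 9 in all.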

Other observations

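Within the set, members holding both Fabp4 and Cd5l were compared with members holding neither, as a description, since the split uses genes of the rule. In Ctrl 21 dpi, 75 members held both and 72 neither. Slc40a1 was at 392 CPM in the former and 65.0 in the latter (log2 ratio 2.59, 2.04 to 3.20), and H2-Aa at 26.8 and 139 (−2.37). In ADWA11 7 dpi (135 and 125 members), H2-Eb1 was at 2.35 and 113 CPM (−5.59, −7.89 to −4.01). In ADWA11 21 dpi (1523 and 350 members), Dcstamp, which encodes a protein of macrophage fusion, was at 2.18 and 33.2 CPM (−3.93, −4.67 to −3.23), and Mgl2, a lectin of dendritic cells and some macrophages, at 1.80 and 17.5 (−3.28).

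Compared with single classes of lesion macrophages rather than with all other leukocytes, the members had 92 genes at least 2-fold higher in each of 5 libraries against microglia-marker nuclei and 47 against border-type nuclei. Against nuclei with Spp1 and Plau there were 24 over 4 libraries, since ADWA11 21 dpi, which holds 3283 of the 4540 members, had under 50 such nuclei.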
